A study of Mus musculus with 6 samples.

Results

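The Zscan4 genes are a cluster of near-identical zinc finger genes on mouse chromosome 7, described here together with 4 other genes that are read out in the same rare state of embryonic stem cells. The 10 genes were taken by symbol: Zscan4a, Zscan4b, Zscan4c, Zscan4d, Zscan4e, Zscan4f, Zfp352, Tcstv1, Tcstv3 and Tdpoz4. All 10 were among the 24191 genes of the deposited table, and all 10 passed the filter on low values that left 24183 genes for testing. RNA with a polyA tail was sequenced from J1 cells, a line of mouse embryonic stem cells. Of the 6 libraries, 3 came from wild-type (WT) cells and 3 from Mettl5 -/- cells (the knockout). Both groups grew for 7 days with serum and LIF, the cytokine that holds mouse stem cells undifferentiated. METTL5 is the enzyme that methylates an adenosine of 18S ribosomal RNA. The labels state neither how the gene was disrupted nor whether replicates were separate cultures or 1 clone. P-values therefore measure only the spread between these libraries, which may be technical. Mettl5 itself went from 49.2 ± 0.975 to 3.52 ± 0.176 (SD, n = 3) on the deposited TPM scale, in which reads are set per gene length. Libraries do not share a common total on this scale. The smallest knockout total, 1019930, was above the largest WT total, 978167, and comparisons of genotypes on this scale carry that difference. Scaled reads, the other deposited column and the one used for testing, carry such a difference too. Their smallest knockout total was 51499598 and their largest WT total 46541352.

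A small and changing fraction of mouse embryonic stem cells passes through a state that resembles the cleavage embryo just after its genome is switched on. In that state the transcription factor DUX and endogenous retroviral promoters of the MERVL type drive genes that other stem cells keep silent, and ZSCAN4 proteins, which carry a SCAN domain and zinc fingers, are the best known product. ZSCAN4 is known for its role in telomere lengthening by recombination and in genome stability of stem cell cultures. Zfp352 encodes a zinc finger protein of the early embryo, Tdpoz4 a protein with TRAF and POZ domains, and Tcstv1 and Tcstv3 are small genes of the 2-cell embryo. Retroviral transcripts are not analysed here.

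The promoters of 3 Zscan4 genes are printed because they show how alike the copies are and which letters they share, with that of Zfp352 as a contrast. RefSeq (GRCm38.p6) gave a start-site window for 6 of the 10 genes, and the 250 bases before the start were searched. Capitals mark TATAAA, the TATA box, and an inverted repeat. The repeat searched for was TGATT and ATCA with 2 bases between them, on either strand (on the other strand, TGAT and AATCA), letters of the kind described for DUX. The windows are chr7:11005495-11005744 on the + strand (Zscan4c), chr7:11166149-11166398 on the - strand (Zscan4d), chr7:11397665-11397914 on the + strand (Zscan4f) and chr4:90218570-90218819 on the + strand (Zfp352, which has neither).
Zscan4c: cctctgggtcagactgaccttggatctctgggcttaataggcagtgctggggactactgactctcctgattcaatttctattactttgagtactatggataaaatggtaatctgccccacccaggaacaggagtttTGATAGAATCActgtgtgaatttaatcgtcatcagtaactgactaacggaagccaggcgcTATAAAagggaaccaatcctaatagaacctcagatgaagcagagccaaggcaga
Zscan4d: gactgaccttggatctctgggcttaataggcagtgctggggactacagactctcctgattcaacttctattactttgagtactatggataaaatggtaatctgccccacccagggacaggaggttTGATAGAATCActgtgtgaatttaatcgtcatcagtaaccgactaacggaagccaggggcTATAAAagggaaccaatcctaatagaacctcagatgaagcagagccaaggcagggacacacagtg
Zscan4f: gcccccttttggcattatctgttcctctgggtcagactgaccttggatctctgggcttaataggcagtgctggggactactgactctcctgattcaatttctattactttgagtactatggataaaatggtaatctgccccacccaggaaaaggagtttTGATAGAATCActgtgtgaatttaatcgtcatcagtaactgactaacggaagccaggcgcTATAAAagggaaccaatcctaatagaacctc
Zfp352: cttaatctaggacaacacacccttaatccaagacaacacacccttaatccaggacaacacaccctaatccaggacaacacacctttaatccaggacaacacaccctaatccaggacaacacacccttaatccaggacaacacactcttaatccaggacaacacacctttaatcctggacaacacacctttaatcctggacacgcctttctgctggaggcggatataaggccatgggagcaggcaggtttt

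The inverted repeat, as TGATAGAATCA, and TATAAA were found in each of the 4 Zscan4 windows (Zscan4b, Zscan4c, Zscan4d and Zscan4f) and in neither of the other 2, those of Zfp352 and Tdpoz4. Over all 32851 windows of this length in the RefSeq table, 0.177% held the inverted repeat and 12.4% held TATAAA on either strand. The repeat began 91 bases before the annotated start in Zscan4b and Zscan4f, 114 bases in Zscan4c and 125 bases in Zscan4d, and the TATA box 31, 31, 54 and 65 bases before it. The distance between the motifs was thus the same in the 4 windows, whose annotated starts differ. Zscan4c and Zscan4f were 99.6% identical over 227 aligned bases, with 1 mismatch, and the other pairs 94.7% to 97.2%. The 4 windows are copies of one sequence and do not count as separate cases. Of 45 other genes on the list of the same state that had a window, 1 held the inverted repeat (Abcb5) and 9 held TATAAA. A match describes letters and is no evidence of binding.

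Every Zscan4 gene was higher in the knockout, from 4.64 times (Zscan4c) to 6.01 times (Zscan4a) as high in scaled reads. The copies share reads, so their factors are not independent. Summed over Zscan4a to Zscan4f, the TPM-scale level was 33.6, 32.8 and 32.7 in WT and 153.7, 157.6 and 158.6 in knockout libraries, with no overlap. The sum was 4.74 times as high in the knockout on that scale (33.0 ± 0.475 against 156.6 ± 2.6, SD, n = 3) and 4.97 times as high in scaled reads. Scaled reads, the column used for testing, were read as not set per gene length. Across pairs of libraries the ratio of scaled reads ran from 4.82 to 5.12. The sum has no p, since it is a score over chosen genes. In RNA from whole cultures, more cells in the state and more RNA per cell cannot be told apart.

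**Figure D1:**
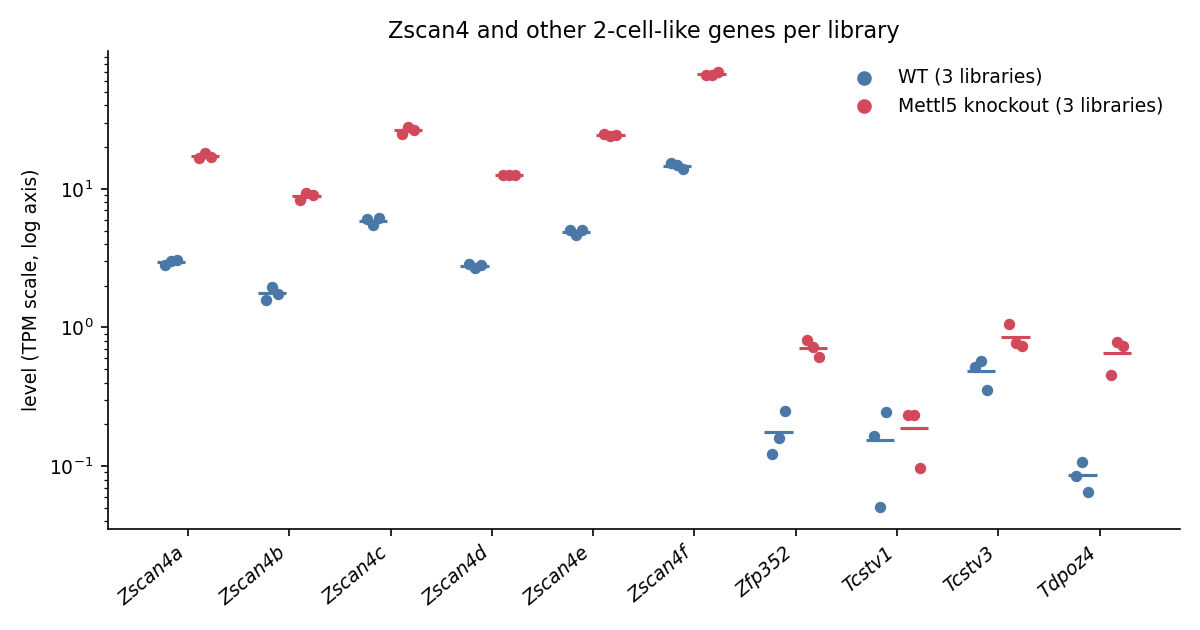
Level of each of the 10 genes in each library on the TPM scale (log axis), with 3 WT points in blue, 3 knockout points in red and the group mean as a line. The groups are apart in 9 genes, and the 6 Zscan4 genes lie above the other 4 genes; Tcstv1 is the gene whose groups overlap.

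In the fit over all genes (limma on log2 of scaled reads + 1, Benjamini-Hochberg adjusted p under 0.05), 9 of the 10 genes were called higher and none had a negative fold change, where 33.6% of all tested genes were called higher and 28.9% lower. All 3 knockout libraries lay above all 3 WT libraries in scaled reads in the same 9 genes, against 35.8% of tested genes. The median log2 fold change, knockout against WT, was 2.24 in the 10 genes and 0.00 over all genes tested. These genes were proposed with earlier results of these data in view, so the counts describe them and are no independent test.

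Zscan4f, the copy with the highest level, had TPM-scale values of 15.2, 15.0 and 13.9 in WT and 66.5, 65.7 and 69.0 in knockout libraries. The knockout libraries were close to each other and far above every WT library. It rose by 2.25 on the log2 scale (SE 0.0419, limma adjusted p 3.22e-10). Zscan4c, the copy best studied for telomere lengthening, was at 6.03, 5.48 and 6.14 in WT and 24.9, 27.7 and 26.5 in knockout libraries. Its log2 fold change was 2.21, with an SE of 0.0544 and a limma adjusted p of 1.56e-09.

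Zscan4d, the copy known from the cleavage embryo itself, was at 2.86, 2.68 and 2.82 in WT and 12.49, 12.50 and 12.6 in knockout libraries, the least spread for its level among knockout libraries of the 10 genes. It rose by 2.22 on the log2 scale (SE 0.0441). Zscan4e was at 5.01, 4.65 and 5.06 in WT and 24.8, 24.2 and 24.4 in knockout libraries and rose by 2.37 (SE 0.0442). The groups of both genes were far apart.

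Zscan4a is annotated as an unprocessed pseudogene in GENCODE M21, yet its RNA was read at 2.83, 3.03 and 3.06 in WT and 16.6, 18.1 and 16.95 in knockout libraries. Its log2 fold change of 2.58 (SE 0.0496, limma adjusted p 3.76e-10) was the largest of the 6 Zscan4 genes. Zscan4b, the copy with the lowest level, was at 1.57, 1.97 and 1.75 in WT and 8.35, 9.37 and 9.04 in knockout libraries and rose by 2.39 (SE 0.0885). Among all tested genes, the 6 fold changes stood at ranks 631 to 895 from the highest.

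The order of the copies was the same in both genotypes on the TPM scale: Zscan4f, Zscan4c, Zscan4e, Zscan4a, Zscan4d, Zscan4b. Zscan4a and Zscan4d overlapped in WT libraries and not in knockout libraries. Zscan4c and Zscan4e did not overlap in either genotype, though in the knockout the lowest Zscan4c value, 24.88, was next to the highest Zscan4e value, 24.83. Zscan4f took 44.5% ± 1.81 of the summed level in WT and 42.8% ± 0.99 in the knockout (SD, n = 3), and its groups overlapped. The share of Zscan4a went from 9.01% ± 0.493 to 11.0% ± 0.404, with no overlap. Zscan4d went from 8.44% ± 0.241 to 8.005% ± 0.108, also with no overlap, and the groups of Zscan4b, Zscan4c and Zscan4e overlapped.

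**Figure D2:**
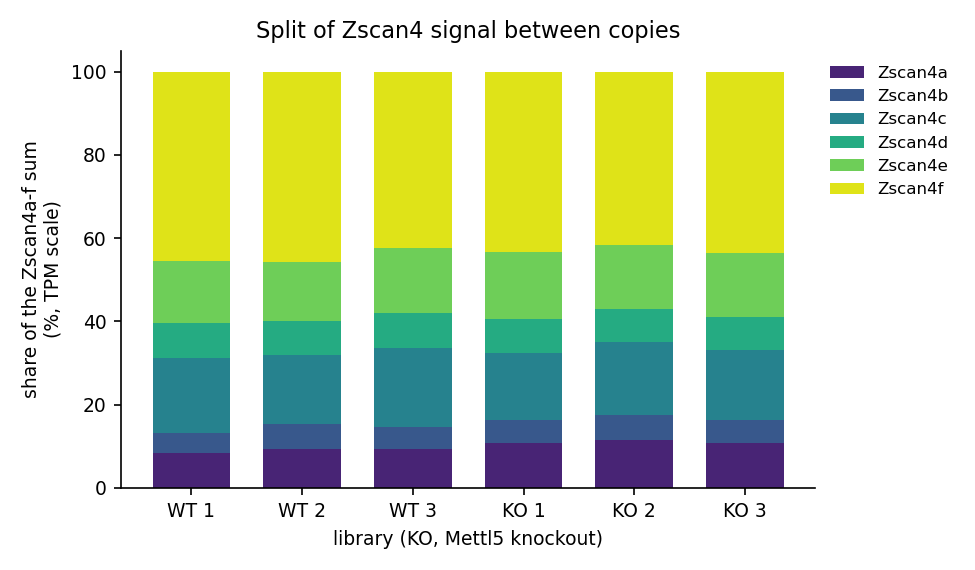
Share of each Zscan4 gene in the sum of Zscan4a to Zscan4f in each library (percent of the TPM scale; KO, knockout). Zscan4f holds 41.7% to 45.7% in every library and the stacks look alike in both genotypes, apart from a wider Zscan4a band in the knockout.

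How reads were split between copies is uncertain. Cut into overlapping runs of 31 letters, the GENCODE M21 transcripts of Zscan4b, Zscan4e, Zscan4f and Zscan4c had 4.77%, 6.3%, 8.28% and 8.46% of their runs in no other gene. Zscan4a and Zscan4d had more that were their own, 23.3% and 35%. The closest partner of Zscan4b was Zscan4e, which held 90.6% of its runs, and the closest of Zscan4c and Zscan4f was Zscan4-ps2, with 81.6% and 82.9%. Both copies with the most sequence of their own were called, Zscan4d rising by 2.22 and Zscan4a by 2.58 on the log2 scale. Zscan4-ps1, Zscan4-ps2 and Zscan4-ps3, which keep pseudogene names but are annotated as protein coding, rose by 2.50, 2.27 and 2.53. With these 3 added, the summed level went from 40.2 ± 0.507 to 192.8 ± 2.42 on the TPM scale (SD, n = 3), 4.8 times as high.

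The cluster runs over 608077 bases from Zscan4a (chromosome 7, 10794242 to 10799057 in GRCm38, also called mm10) to Zscan4f (11397915 to 11402318), and over 819871 bases to the end of Zscan4-ps3. Between them lie Zscan4b (10900740 to 10905050), Zscan4c (11005745 to 11010547), Zscan4d (11161374 to 11166159) and Zscan4e (11306378 to 11310682). The table lists the 6 genes as ENSMUSG00000110097, ENSMUSG00000095339, ENSMUSG00000054272, ENSMUSG00000090714, ENSMUSG00000095936 and ENSMUSG00000070828, from Zscan4a to Zscan4f. Zscan4c and Zscan4f are on the + strand, and Zscan4a, Zscan4b, Zscan4d and Zscan4e on the - strand. The nearest tested gene before Zscan4a, the vomeronasal receptor gene Vmn1r70, was near 0 on the TPM scale (means 0.0412 and 0.035) and was not called (log2 fold change -0.17). The nearest tested gene after Zscan4f, the pseudogene Gm45551, rose by 1.45, from 0.921 to 2.45. Of the other 2 genes tested inside the cluster, named after their values were seen, Gm18204 rose by 1.83 to a mean of 0.201, and Gm45598 fell by 0.69. Beyond the cluster, Vmn1r72 and Vmn1r74 were not called and Zik1 rose by 0.25. The median log2 fold change of the 1937 tested genes of chromosome 7 was 0.03.

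**Figure D3:**
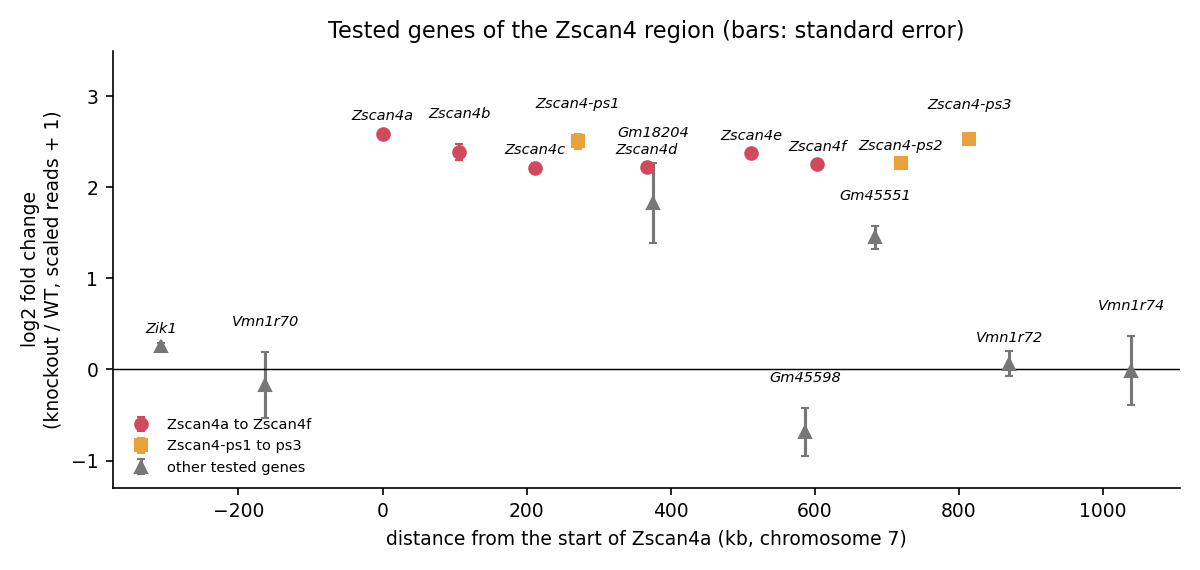
Log2 fold change (knockout against WT, scaled reads + 1) of the tested genes of the Zscan4 region against distance from the start of Zscan4a in kb; bars are standard errors from limma. The 9 Zscan4 genes lie between 2.21 and 2.58, and the 4 tested genes outside the cluster lie between -0.17 and 0.25.

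The 4 genes outside the cluster were far lower. Summed, they reached 0.89, 0.887 and 0.916 on the TPM scale in WT and 2.55, 2.50 and 2.18 in knockout libraries, 2.69 times as high in the knockout (3.35 times in scaled reads). From the step whose whole multiples held the most values, 1 fragment was estimated at 0.869 to 1.27 scaled reads, so these genes rested on few fragments. That step held only 29.9% to 31.8% of low values, so fragment numbers are rough. The table lists Tdpoz4, Zfp352, Tcstv3 and Tcstv1 as ENSMUSG00000060256, ENSMUSG00000070902, ENSMUSG00000095821 and ENSMUSG00000096284.

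Tdpoz4 (chromosome 3, 93796398 to 93797510) had TPM-scale values of 0.0851, 0.106 and 0.0655 in WT and 0.456, 0.781 and 0.734 in knockout libraries. The groups did not overlap, and knockout replicate 1 was lower than the other 2 knockout libraries. In estimated fragments that was 3.0 to 6.0 against 20.6 to 51.7. It rose by 2.74 on the log2 scale (SE 0.302, limma adjusted p 3.46e-05), and by 2.00 in the TPM column and 1.68 with a pseudocount of 10, both below every Zscan4 gene under the same setting. Of its 31-letter runs, 35.4% were in no other gene.

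Zfp352 (chromosome 4, 90218820 to 90225702) was at 0.122, 0.158 and 0.251 in WT and 0.808, 0.717 and 0.608 in knockout libraries, from 14.5 to 21.7 estimated fragments in WT and 68.7 to 89.1 in the knockout. The lowest knockout library was above 2 times the highest WT library. It rose by 2.05 on the log2 scale (SE 0.263, limma adjusted p 9.97e-05). With 78.5% of its 31-letter runs in no other gene, it was the member with the most sequence of its own.

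Tcstv3 (chromosome 13, 120316878 to 120318178) was at 0.518, 0.572 and 0.355 in WT and 1.05, 0.769 and 0.741 in knockout libraries. The groups did not overlap, but the gap between the highest WT and the lowest knockout library was smaller than the range within either group. It rose by 0.87 on the log2 scale (SE 0.263, limma adjusted p 0.0171). The call was lost without WT replicate 3 (limma adjusted p 0.0522) or without knockout replicate 1 (limma adjusted p 0.0625), over a range of 0.0115 to 0.0625 for all alternatives.

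Tcstv1 (chromosome 13, 119893388 to 119894785) was at 0.165, 0.0507 and 0.244 in WT and 0.232, 0.233 and 0.0969 in knockout libraries, with overlapping groups. It stood at 2.7 to 10.8 estimated fragments in WT and 6.1 to 14.9 in the knockout. Its log2 fold change of 0.43 (SE 0.534, limma adjusted p 0.509) was smaller than its standard error and became -0.12 without WT replicate 2. A difference between the groups was not detectable at this depth.

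Other genes of the state, from a list of 89 symbols, were mostly higher. Of these, 67 were in the table and tested, 48 were called higher, 6 lower and 13 were not called, beside 33.6% higher and 28.9% lower over all genes tested, with a median log2 fold change of 1.87 against 0.00 over all genes tested. Parts of this list share reads or sit beside each other, so its genes are not independent. By the smallest p-values the list was led by Zscan4-ps3 and Zscan4-ps2, then by Gm21304, Gm21293 and Gm6763, which lie together on chromosome 10. Gm6763 went from 9.01 ± 0.508 to 47.7 ± 1.89 on the TPM scale (SD, n = 3) and rose by 2.47 on the log2 scale (SE 0.0546, limma adjusted p 8.8e-10). Gm8764 had the same values as Gm6763 in every library, as identical copies do. Gm21304 and Gm21293 had the same TPM-scale values in every library, so they do not count as separate cases.

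Whole families of the list were on the higher side, where 33.6% of all tested genes were called higher and 28.9% lower. Copies within a family can share reads, so the counts are not of independent genes. All 10 tested genes of the Eif1a-like family on chromosome 12, relatives of a translation initiation factor, were called higher, with log2 fold changes of 1.39 to 2.87, and their summed level went from 12.2 to 13.9 in WT to 61.6 to 63.3 in knockout libraries. All 5 Usp17l genes, which encode deubiquitinases, were called higher (1.04 to 2.53). The 3 other Tdpoz genes in the table were called higher (1.56 to 2.38), at a summed level that reached 1.61. Most of that level was Tdpoz3, with a knockout mean of 1.22 against 0.0841 for Tdpoz1 and 0.168 for Tdpoz5. Tdpoz1 and Tdpoz5 were near the floor, with WT means of 3.05 and 1.05 scaled reads, and Tdpoz5 had the same scaled reads as Gm10697. Of 8 tested Pramef and Pramel genes with their relatives, 5 were called higher, and Pramel6 and Pramel7 were not called. None of the 3 Trim43 genes was called, with log2 fold changes from -0.47 to 0.26 and unadjusted limma p-values of 0.131 to 0.713. On chromosome 13, which also holds Tcstv1 and Tcstv3, Gm21761 and AF067061 rose by 1.87 and 2.21, and Gm20767 was not called (log2 fold change 0.72, limma adjusted p 0.216).

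**Figure D4:**
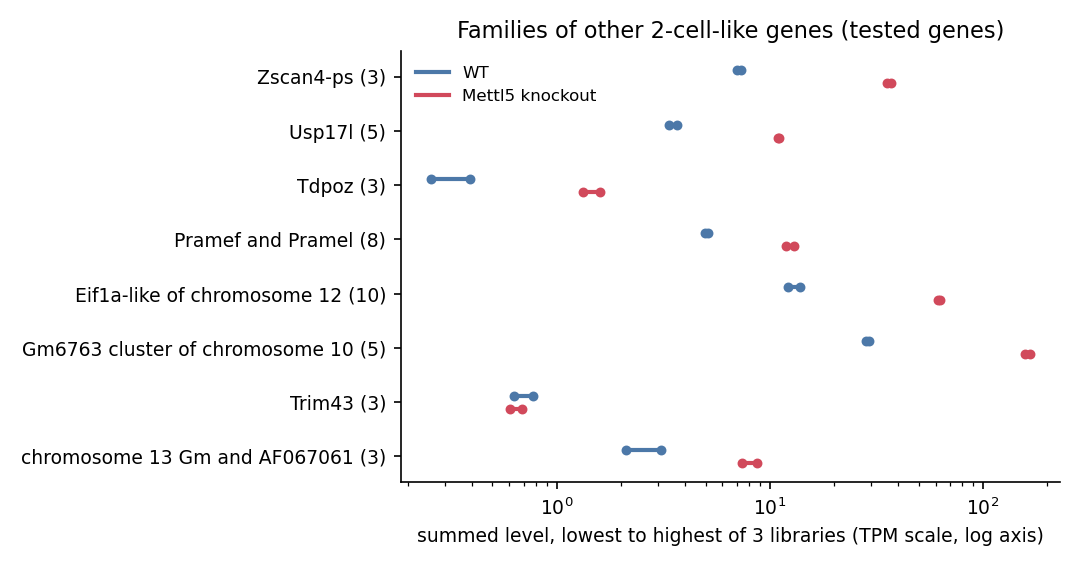
Summed level of families of other genes of the state, as the lowest to the highest of 3 libraries on the TPM scale (log axis), WT in blue and knockout in red, with the number of tested genes in parentheses. WT and knockout ranges are apart in 7 of the 8 families, and those of the Trim43 genes overlap; copies that share reads are counted once per listed gene.

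Duxf3, which encodes DUX, the factor that opens the state, was at 0.120, 0.182 and 0.124 in WT and 0.4999, 0.269 and 0.328 in knockout libraries. The groups did not overlap and the spread within the knockout was wide. It rose by 1.33 on the log2 scale (SE 0.289, limma adjusted p 0.00292). DUX genes lie in a repeat array, and another gene identifier had the same values.

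The 6 lower genes of the list, named after their values were seen, were Usp26 (-2.46), Patl2 (-1.07), Calcoco2 (-0.61), Klf17 (-1.55), Slc34a2 (-1.16) and Chit1 (-1.28). Usp26, an X-linked deubiquitinase gene of the testis, went from 4.46 ± 0.178 to 0.780 ± 0.0446 on the TPM scale (SD, n = 3). Klf17, a zygotic Krüppel-like factor, was at 0.374 or less in all 6 libraries. Slc34a2 and Chit1 were also low, with WT means of 0.133 and 0.279. Calcoco2 is on chromosome 11, where the median log2 fold change of all tested genes was -0.41. With a minimum mean of 20 scaled reads, 4 genes of the list were called lower.

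Regulators of the state were called in both directions, as were all tested genes (33.6% higher and 28.9% lower). Of 8 listed activators, 4 were called higher and 1 lower (median log2 fold change 0.10), and of 36 listed repressors 18 higher and 11 lower (median 0.09). With libraries rescaled to equal totals, the 44 regulators had 12 called higher and 20 lower, in place of 22 and 12. Dppa2, which with Dppa4 switches on Dux, rose by 0.35, and Dppa4 was at 119.1 ± 1.76 in WT and 116.9 ± 2.65 in the knockout and was not called (SD, n = 3). Gata2, another activator, rose by 1.87 to 3.16 ± 0.35 on the TPM scale, and Zscan5b, the lower activator, fell by 0.73.

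Among the regulators with the smallest p-values were Tet2, Tet1, Lin28a and E2f6. Tet1 and Tet2, which oxidise methylated DNA, went from 121.9 ± 4.17 to 64.4 ± 1.56 and from 23.6 ± 0.495 to 11.9 ± 0.38 on the TPM scale (SD, n = 3). Lin28a, an RNA-binding protein that with nucleolin holds Dux silent, rose by 0.61, and E2f6, a partner of a Polycomb complex, by 0.75. Trim28, Chaf1a and Setdb1, whose loss is known to switch on MERVL, rose by 0.11, 0.17 and 0.17 under the deposited scaling, but none was called with equal totals, where their log2 fold changes were -0.04, 0.01 and 0.02. The histone demethylase gene Kdm1a (0.05) was not called, and was called lower with equal totals (-0.10), as was Dppa4 (-0.12). Equal totals moved the median of all genes to -0.15.

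Of 24 genes for telomere maintenance and recombination, 9 were called higher and 11 lower (median -0.14), where 33.6% of all tested genes were called higher and 28.9% lower. The count of higher genes was near that background. By p-value the list was led by Rad50 (log2 fold change -0.94), Dmc1 (-1.13), Brca1 (-0.58), Ctc1 (-0.51) and Pot1a (-0.50), all of them lower. Rad50, Brca1 and Ctc1 are on chromosome 11 and Pot1a on chromosome 6, where the median log2 fold changes of all tested genes were -0.41 and -0.29. Tert, the telomerase catalytic subunit, fell by 0.51, from 6.09 ± 0.562 to 4.12 ± 0.261 (SD, n = 3). Spo11, which cuts DNA in meiosis, rose by 2.23 but stayed at 0.226 ± 0.0781 in the knockout.

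**Figure D5:**
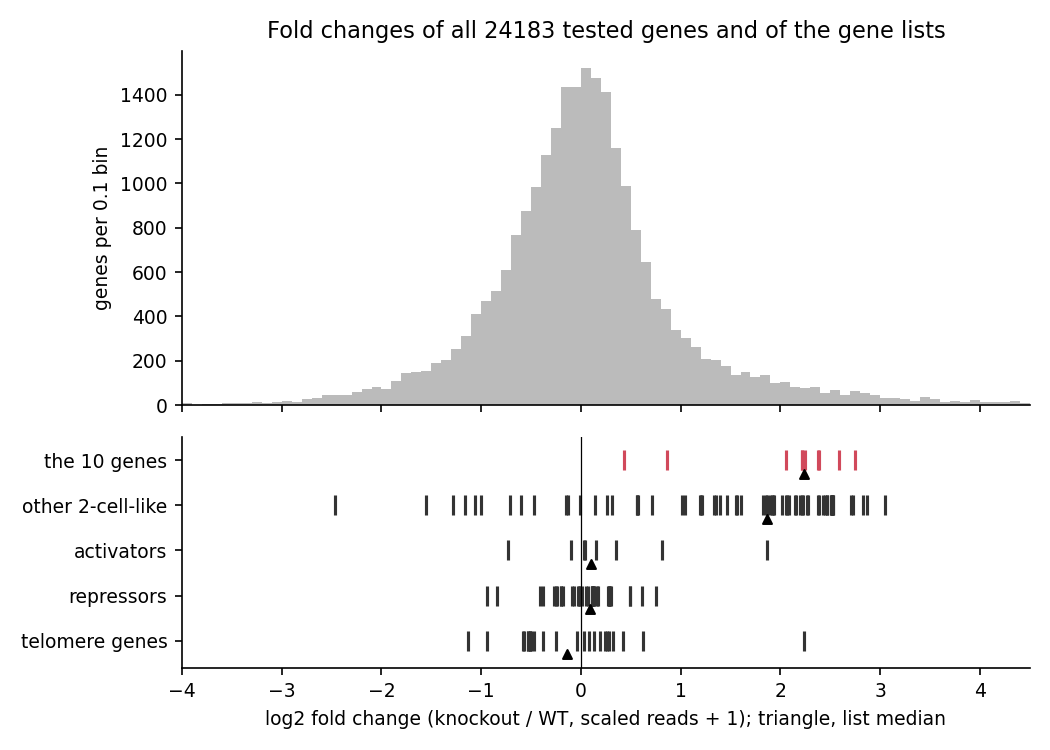
Histogram of log2 fold changes (knockout against WT, scaled reads + 1) of the 24183 tested genes, in bins of 0.1, above the fold changes of each gene list, 1 tick per gene with a triangle at the list's median; the axis is cut at -4 and 4.5. The 10 genes have a median of 2.24 and the other listed genes of the state one of 1.87, and the medians of activators, repressors and telomere genes lie between -0.14 and 0.10.

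Cell type markers were called in both directions, where 33.6% of all tested genes were called higher and 28.9% lower. Of 6 stem cell markers, 4 were called lower (log2 fold changes of -0.58 for Sox2, -0.52 for Utf1, -0.46 for Tdgf1 and -0.09 for Pou5f1), Dppa5a was called higher (0.31) and Nanog was not called, with a median of -0.27. Their sum, most of it Dppa5a and Pou5f1, was 4687 to 5089 in WT and 4623 to 5059 in the knockout on the TPM scale. Of 10 fibroblast markers 9 were called higher and 1 lower, with sums of 15.2 to 17.7 and 38.7 to 39.99, and of 6 tested trophoblast markers 5 were higher, with sums of 14.95 to 16.3 and 33.0 to 33.6. The fibroblast collagen gene Col1a1 went from 0.694 ± 0.316 to 17.7 ± 0.444, and the trophoblast factor gene Cdx2 from 0.258 ± 0.0118 to 5.38 ± 0.144 (SD, n = 3). Thy1 was the lower fibroblast marker and Elf5 the uncalled trophoblast marker. No tested marker was at 0 in every library. Their part in the rise of the Zscan4 genes was not tested. Of 4 tested genes of the oocyte, Zp3 fell by 0.27 and Gdf9, Figla and Nlrp5 were not called, and their sum was 5.45 to 6.07 in WT and 4.16 to 4.40 in the knockout.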

How the data were processed

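PolyA RNA of 3 WT and 3 Mettl5 knockout libraries was analysed, grouped by sample title. Per the labels' protocols, RNA was fragmented to 100 nt and made into stranded libraries. The submitters' processing notes name kallisto, sleuth and mm10, without versions or roles. Per gene, the authors deposited 2 signal columns, one headed scaled_reads_per_base, here called scaled reads, and a TPM column. Scaled reads are not whole and sum to 46076612 to 51829716 per library. The ratio of the columns differs between genes, so only the TPM scale, which sums to 969838 to 1022473, was read as per length. For scaled reads this reading goes against the words of the heading. Between 29.9% and 31.8% of scaled reads from 0.5 to 40 lay within 0.02 of whole multiples of a step, which gave 38559530 to 59642941 estimated fragments per library. Because so few values were whole, no count test was run.

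limma 3.58.1 (R 4.3.3, intensity trend, Benjamini-Hochberg) was fitted to log2(scaled reads + 1) after dropping genes with a mean under 1 (24183 left), and was tested on simulated data. Fold changes on this scale understate low genes. Names and coordinates came from GENCODE M21 (23846 of 24191 genes matched), promoters from RefSeq. Alignments used biopython 1.88, tables pandas 2.3.3. The 10 genes and all lists were chosen with earlier results of these data known. The rule for naming genes took the 10 genes, the 5 smallest p-values of each list (the regulators as one list), members called in the rarer direction where 5 or fewer, the 5 genes with the profile most like the Zscan4 sum, and the nearest tested neighbours; others are named as groups or after their values were seen. One gene that the rule takes is not reported here. The fixed lists were other genes of the state, regulators, telomere genes and markers of stem cells, fibroblasts, trophoblast and oocytes. Alternatives were equal totals, TMM factors, the TPM column, pseudocounts of 0.5 and 10, a minimum mean of 20 or none, centring per chromosome, no intensity trend, a replicate block and leaving out each library.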

Additional observations from a re-analysis of the deposited data

How the results depend on the processing

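Each result was recomputed under up to 16 alternatives. Calls of the 6 Zscan4 genes, Zfp352 and Tdpoz4 kept their direction and side of the threshold under each of 16, with log2 fold changes of 2.06 to 2.61 for Zscan4 genes, 1.57 to 2.32 for Zfp352 and 1.68 to 2.98 for Tdpoz4. Zfp352 and Tdpoz4, with WT means of 18.4 and 4.72 scaled reads, passed the minimum mean of 20 only through their knockout libraries. Their calls under that filter therefore add no support. The number of the 10 genes called higher was 9, or 8 with a minimum mean of 20 scaled reads, which leaves Tcstv1 and Tcstv3 untested, and 8 to 9 when a library was left out. Tcstv1 had a log2 fold change of -0.12 without WT replicate 2 and 0.84 without WT replicate 3, and Tcstv3 lost its call without WT replicate 3 (0.69) or knockout replicate 1 (0.72). The log2 ratio of the Zscan4 sum was 2.31, against 2.16 with equal totals, 2.25 in the TPM column and 2.26 with values centred per chromosome, shifts that exceed the spread between libraries, and 2.30 to 2.33 with a library left out. The sum of the other 4 genes had a ratio of 1.75, and 1.43 in the TPM column. Regulators called higher and lower were 12 and 20 with equal totals, in place of 22 and 12. Other genes of the state had 43 to 50 called higher and 4 to 8 lower. The 43 came from the minimum mean of 20 scaled reads. Some of these genes passed it only through knockout libraries, so that setting adds no support for them. Examples are Usp17ld (mean scaled reads of 16.6 in WT and 94.1 in the knockout) and Tdpoz3 (15.8 and 69.0). With the replicate block, 9 of the 10 genes, 8183 genes in all and 48 other genes of the state were called higher, and 6927 genes lower; same-numbered libraries correlated by 0.00664, 0.0108 and 0.0316 in their deviations, and not every library correlated best with its own number. Over all genes 8137 were higher and 6998 lower, which became 6309 and 9147 with equal totals. Low levels limit Tcstv1, Tcstv3, Zfp352 and Tdpoz4.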

Other observations

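Over the 6 libraries, the 5 genes outside the 10 whose profile lay closest to that of the Zscan4 sum were Cdcp1, Lgals1, Tnfrsf19, Errfi1 and Lhfpl2. Closeness was the mean absolute difference of log2 values taken relative to the WT mean, over 6 libraries, and was 0.0192 to 0.0246. Since the profile is mainly the step between genotypes, this finds genes with the same fold change: Lgals1, which encodes a secreted galectin, had mean TPM-scale levels of 248.5 in WT and 1164 in the knockout (log2 fold change 2.30), and Errfi1, a feedback inhibitor of the EGF receptor, 8.57 and 40.9 (2.30). None of the 5 was on the list of other genes of the state.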
